A study of Homo sapiens with 6 samples.

Results

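Keratins are the intermediate filament proteins of epithelial cells, and their genes were followed here through 3 related lung cancer lines. Members were all rows of the deposited table over all libraries whose name is KRT, a number and at most a letter A to C, which took 55 of its 26475 genes and left out keratin-associated proteins and pseudogenes. Of these, 28 are type I genes, 26 are type II genes, and KRT222 was kept apart. The human lines were PC9, PC9-BrM4 and PC9-AMG, with 2 libraries for each, and all 3 were grown in the medium or condition that the labels call MGS. PC9 is an EGFR-mutant lung adenocarcinoma cell line, and by name both others derive from PC9. BrM4, AMG and MGS are not expanded in the labels, and the word mix, which every library description carries, is not explained. The labels name no genetic change and no other agent. Nor do they tell if paired libraries of a line come from separate cultures, so p-values measure the spread between libraries, which may be technical. Messenger RNA was sequenced with a stranded kit, and the values are TPM, a share of the library corrected for transcript length, with n = 2 libraries per line.

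Type I (acidic) and type II (basic) keratins pair with each other, and the pairs assemble into filaments that anchor at desmosomes and hemidesmosomes and carry mechanical load. KRT8 and KRT18, with KRT7 and KRT19, are the keratins of simple epithelia such as the lung's, and pathologists use KRT7 as a mark of lung adenocarcinoma. KRT5 and KRT14 mark basal cells of stratified epithelia and squamous tumours, KRT6 and KRT16 are induced in wounded or activated epidermis, KRT13 belongs to the upper layers of internal stratified epithelia, and the hair keratins, such as KRT81 and KRT34, are normally built into the hair shaft and nail.

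All 8 epithelial markers checked (EPCAM, CDH1 and CLDN4 among them) were at 1 TPM or more, and they summed in PC9 to between 4811 and 4904 TPM, in PC9-BrM4 to between 4765 and 4779 TPM and in PC9-AMG to between 4575 and 4860 TPM. Of 10 lung epithelium markers 3 reached 1 TPM. SFTPB, SFTPC, SFTPA1, SCGB1A1 and SLC34A2 were listed at 0 in every library and NKX2-1 stayed under 1 TPM, while those that reached it were MUC1 (up to 159 TPM), NAPSA (up to 1.69 TPM) and SFTPD (up to 1.40 TPM). The astrocyte markers GFAP and S100B, and 5 of 8 microglia and leukocyte markers, were listed at 0. CD68 (up to 229.5 TPM) and CSF1R (up to 9.96 TPM) of the latter list were present. So were the astrocyte markers ALDH1L1 (up to 32.8 TPM) and APOE (up to 41.9 TPM). SLC1A3, also an astrocyte marker, was at 0 in both PC9 libraries, 3.44 and 2.12 TPM in PC9-BrM4 and 0.652 and 0.361 TPM in PC9-AMG. Some marker sums did move with the line: in PC9, PC9-BrM4 and PC9-AMG the lung list summed to 134 to 162, 90.1 to 102 and 80.4 to 114 TPM, the fibroblast list to 9.38 to 11.2, 16.4 to 18.1 and 9.30 to 15.6 TPM, the astrocyte list to 32.8 to 36.3, 27.2 to 28.02 and 70.0 to 75.8 TPM, and the microglia and leukocyte list to 223 to 229, 159.5 to 172 and 218 to 239 TPM. The highest members of these lists were MUC1, COL1A1 (up to 17.1 TPM), APOE and CD68, in that order. COL1A1 was the only fibroblast marker to reach 1 TPM. Limma called it in no comparison (adjusted p = 0.0664, 0.530 and 0.195), while MUC1, APOE and CD68 were called lower in PC9-BrM4 than in PC9. The fibroblast sums of PC9-AMG spanned those of PC9. The part of the marker sums in the keratin differences was not tested. The number of genes reaching 1 TPM was 13848 to 14171 per library. No read counts were used, so depth is unknown, but a gene at 1 TPM had between 0.606 and 0.822 reads per base.

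The keratin profile of all 3 lines was that of a simple epithelium with lower levels of several stratified keratins. Of the 55 members, 29 were listed at 0 in all 6 libraries and 26 were above 0 in at least 1 library. A group mean of 1 TPM was reached by 20 and of 10 TPM by 14. The 5 highest were KRT7, KRT8, KRT13, KRT18 and KRT19, and KRT19 ranked 8th to 15th among all genes by TPM. Of the 17 hair keratins 12 were listed at 0, and of the 6 simple epithelial keratins only KRT20 was, named here after its values were seen. A further 5 members were above 0 but too low to test (KRT4, KRT9, KRT32, KRT74 and KRT79, at most 0.745 TPM), which left 21 for testing, 10 of type I and 11 of type II.

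**Figure D1:**
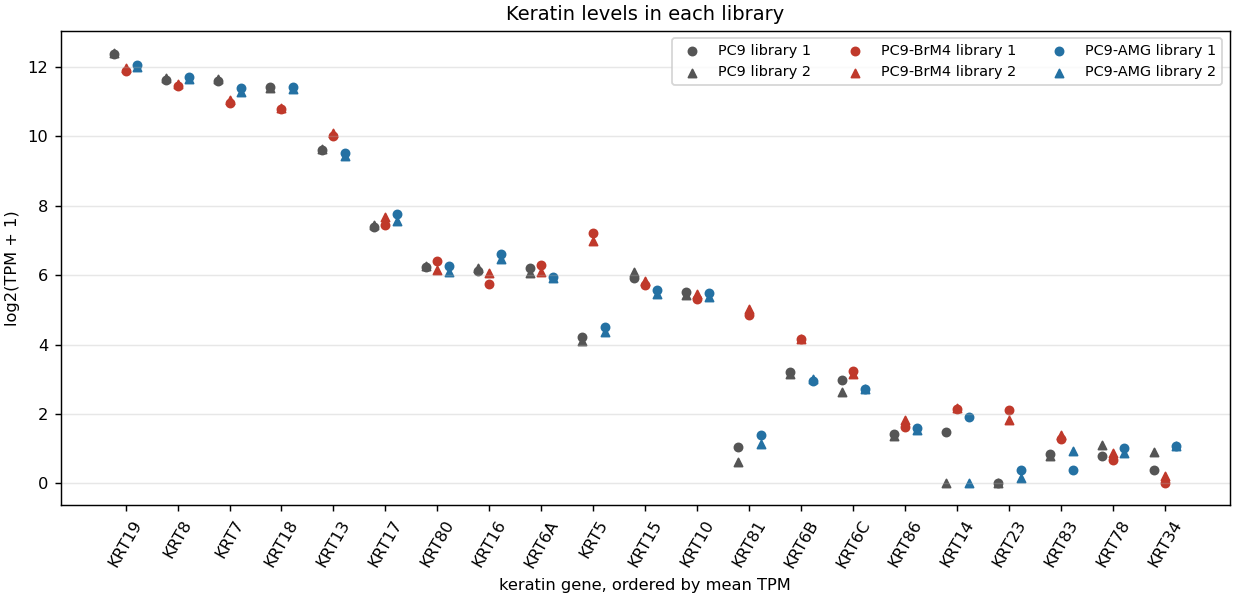
Level of each of the 21 tested keratins in each library, as log2(TPM + 1) on the vertical axis, with genes ordered by mean TPM; circles are library 1 and triangles library 2 of each line. KRT81, KRT5, KRT6B and KRT23 in PC9-BrM4 stand above the other lines, and KRT7, KRT18 and KRT19 below PC9.

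KRT19, a type I keratin that lacks most of the tail domain, had the highest level per length in every library, at 5366 and 5452 TPM in PC9, 3760 and 4052 TPM in PC9-BrM4 and 4283 and 4131 TPM in PC9-AMG. KRT8, the type II partner of KRT18, was at 3182 and 3283 TPM in PC9, 2798 and 2923 TPM in PC9-BrM4 and 3346 and 3200 TPM in PC9-AMG. The order below KRT19 differed between the lines. In PC9 the KRT7 libraries (3130 and 3254 TPM) overlapped those of KRT8, and KRT18 followed at 2751 and 2710 TPM. In PC9-BrM4 the genes were separated, with KRT7 at 2015 and 2118 TPM and KRT18 at 1776 and 1794 TPM. In PC9-AMG the libraries of KRT18 (2745 and 2668 TPM) and KRT7 (2698 and 2480 TPM) overlapped. Of the 50-base stretches of the KRT18 transcript 28.9% also occur in transcripts of other genes, 43 genes in all with the pseudogenes KRT18P11 and KRT18P10 first. Part of its reads may thus have been assigned elsewhere. Neither pseudogene has a deposited value, and the only KRT18 pseudogene that has, KRT18P55, was at most at 0.271 TPM. KRT8 and KRT18 lie side by side on opposite strands and their gene spans overlap by 996 bases, and whether counting used the strand is not given in the sources used here.

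The total keratin share was highest in PC9. All keratins summed to 15875 ± 202 TPM in PC9 (SD, n = 2), 12381 ± 441 TPM in PC9-BrM4 and 14047 ± 495 TPM in PC9-AMG, or 1.59%, 1.24% and 1.40% of the library, and the lines did not overlap. KRT7, KRT8, KRT18 and KRT19 together held 91.7% of keratin TPM in PC9, 85.8% in PC9-BrM4 and 91.0% in PC9-AMG. The other 51 keratins summed to 1311 ± 12.1 TPM, 1763 ± 61.1 TPM and 1270 ± 75.4 TPM in the same order. The PC9-BrM4 libraries were thus the highest for this sum and the lowest for that of KRT7, KRT8, KRT18 and KRT19. KRT13 was the highest of the 51, with means of 783, 1067 and 713 TPM, and KRT5 had means of 16.9, 137 and 20.6 TPM. KRT15 and KRT16 had lower means in PC9-BrM4 than in PC9. As sums over members these totals were given no test, and in bulk RNA fewer cells with a keratin and less of its RNA per cell cannot be told apart.

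The balance between partners also differed. KRT8 over KRT18 was 1.16 and 1.21 in the PC9 libraries, 1.58 and 1.63 in PC9-BrM4 and 1.22 and 1.20 in PC9-AMG. The PC9-BrM4 ratio thus lay above every library of the other lines. Over whole families the balance was flatter, and type II over type I summed TPM was 0.712 ± 0.0127 in PC9, 0.742 ± 0.0139 in PC9-BrM4 and 0.753 ± 0.0116 in PC9-AMG.

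**Figure D2:**
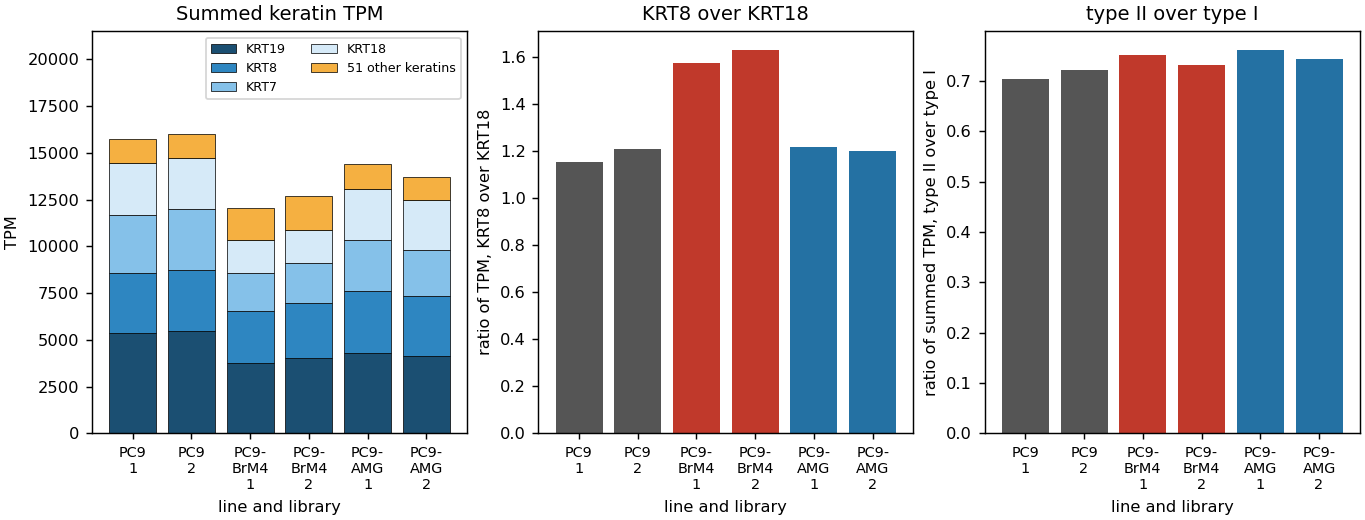
Left, summed keratin TPM in each library, stacked as KRT19, KRT8, KRT7, KRT18 and the 51 other keratins; middle, the ratio of KRT8 to KRT18 TPM; right, the ratio of summed type II to type I TPM, all per library. The PC9-BrM4 libraries have the shortest bars, the thickest block of other keratins and the highest ratios of KRT8 to KRT18 (1.58 and 1.63).

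PC9-BrM4 was set against PC9 to see which keratins a derivative expresses at another level than its parental line. The basal keratin KRT5, the hair keratin KRT81, KRT23, the activated-epidermis keratin KRT6B and KRT13 rose in PC9-BrM4, and KRT7, KRT18 and KRT19 of simple epithelia fell. Limma called these 8 of the 21 tested keratins at a Benjamini-Hochberg adjusted p under 0.05, 5 higher and 3 lower. Over all 14627 tested genes 16.3% were called, 9.89% higher and 6.45% lower. The calls were spread over both types, 4 of 10 in type I and 4 of 11 in type II. KRT23, KRT34 and KRT83 passed the filter on low values through 1 line only, and without these 3 there were 7 calls among 18, 4 higher and 3 lower. The median log2 difference of the keratins was 0.07, beside 0.09 over all tested genes. TPM did not overlap between the lines for 16 of the 21, beside 61.2% of all tested genes.

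KRT5, which pairs with KRT14 in basal cells, lies on chromosome 12 (52514575 to 52520459, hg38, minus strand). It was at 17.5 and 16.2 TPM in PC9, 147.5 and 126.8 TPM in PC9-BrM4 and 21.6 and 19.6 TPM in PC9-AMG. Both PC9-BrM4 libraries thus stood well above the other 4. The mean was 8.13-fold that of PC9 (log2 difference 2.95, SE 0.12, limma adjusted p = 1.05e-06). Only 3.99% of its 50-base stretches occur in another gene. Its usual partner KRT14 was far lower. It was listed at 1.79 and 0 TPM in PC9, 3.39 and 3.46 TPM in PC9-BrM4 and 2.73 and 0 TPM in PC9-AMG. Both PC9-BrM4 libraries were again the highest, with zeros in 1 library each of PC9 and PC9-AMG. KRT14 was not called (3.83-fold, log2 difference 1.41, adjusted p = 0.138), although it was without PC9 library 1 (0.0326). KRT15, the other basal type I keratin, was at 59.2 and 67.5 TPM in PC9, 52.0 and 56.1 TPM in PC9-BrM4 and 47.0 and 43.0 TPM in PC9-AMG, and was not called in PC9-BrM4 (adjusted p = 0.222).

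The DNA upstream of KRT5 is shown because it is the only keratin called in PC9-BrM4 for which RefSeq's promoter table (GRCh38.p14) has an entry. That table holds 34 of the 55 members and 4 of the 21 tested ones (KRT5, KRT8, KRT10 and KRT34). The stretch chr12:52520460-52520644, written 5′ to 3′ on the minus strand, is the part of the 250 bases before the RefSeq start that lies outside the gene span of the deposited tables:
KRT5 upstream: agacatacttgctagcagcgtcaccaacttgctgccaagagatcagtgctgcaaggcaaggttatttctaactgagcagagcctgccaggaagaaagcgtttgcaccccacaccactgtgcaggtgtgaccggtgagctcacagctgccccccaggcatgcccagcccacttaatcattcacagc
No base is in capitals because none of the 7 motifs searched on both strands occurs in this stretch, which is 55.1% G and C. The motifs, with the share of 35116 promoters of 250 bases that hold each, were TATAAA (10.7%), ATAAAA (14.8%, overlapping TATAAA by its letters and added after the sequence was seen), GGGCGG (42.6%), TGANTCA (6.57%), GCCNNNGGC (19.8%), AACCNGTT (1.49%) and CCAAT (32.0%). ATAAAA has a match 29 to 24 bases before the RefSeq start, inside the deposited gene span, and the other 6 have none in the 250 bases. A match or its absence describes these letters only.

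KRT81, a type II hair keratin on chromosome 12 (52285913 to 52291515), was high in PC9-BrM4 alone. It was at 1.06 and 0.530 TPM in PC9, 27.9 and 31.4 TPM in PC9-BrM4 and 1.62 and 1.19 TPM in PC9-AMG. The mean was 37.3-fold that of PC9, a ratio to a level under 1 TPM (log2 difference 4.11, SE 0.21, adjusted p = 2.58e-06). Its neighbours KRT83 (0.791 and 0.713 TPM in PC9, 1.43 and 1.64 TPM in PC9-BrM4) and KRT86 (1.69 and 1.59 TPM, then 2.06 and 2.55 TPM) were not called. KRT81 thereby went from 24.3% of the summed TPM of KRT81, KRT83 and KRT86 in PC9 to 88.5% in PC9-BrM4, and was at 35.4% in PC9-AMG. These genes are near copies: without gaps the transcripts of KRT81 and KRT86 are 88.4% identical and those of KRT81 and KRT83 87.7%, and 44.6% of the 50-base stretches of KRT81 occur in other genes. With the 3 summed to a common value the call remained, at a log2 difference of 3.05 (adjusted p = 3.45e-06).

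KRT23, a type I keratin of glandular and simple epithelia, was listed at 0 in both libraries of PC9, at 3.28 and 2.51 TPM in PC9-BrM4 and at 0.312 and 0.121 TPM in PC9-AMG. No fold can be given against a level of 0; limma gave a log2 difference of 1.95 (SE 0.26, adjusted p = 0.00104), and none of its 50-base stretches occurs in another gene. KRT6B was at 8.21 and 7.85 TPM in PC9, 16.7 and 16.8 TPM in PC9-BrM4 and 6.76 and 7.01 TPM in PC9-AMG. It rose 2.09-fold (log2 difference 0.98, SE 0.14, adjusted p = 0.00187), while its copies did not pass: KRT6A, the more abundant copy, was at 72.3 and 66.2 TPM in PC9 and 77.7 and 67.8 TPM in PC9-BrM4, and KRT6C at 6.89 and 5.19 TPM and 8.36 and 7.96 TPM. KRT6B shares 47.1% of its stretches with other genes and is 91.8% identical to KRT6A. With the 3 KRT6 copies summed there was no call (log2 difference 0.23, adjusted p = 0.173), a sum most of which is KRT6A.

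KRT13 was at 777 and 788 TPM in PC9, 1029 and 1104 TPM in PC9-BrM4 and 737 and 690 TPM in PC9-AMG. All 3 lines were separate, with PC9-BrM4 the highest. It rose 1.36-fold (log2 difference 0.44, SE 0.08, adjusted p = 0.0038), a call lost with median centring (0.0839), without the variance trend (0.0536) and without PC9 library 1 (0.0588).

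Of the 5 detected simple keratins, 3 fell in PC9-BrM4, KRT23 rose and KRT8 was not called. KRT7 fell from 3192 ± 87.9 TPM to 2066 ± 72.8 TPM (log2 difference -0.63, SE 0.07, adjusted p = 0.00034). KRT18 fell from 2730 ± 29.4 TPM to 1785 ± 12.5 TPM (-0.61, SE 0.06, adjusted p = 0.000206), and KRT19 from 5409 ± 60.9 TPM to 3906 ± 206 TPM (-0.47, SE 0.06, adjusted p = 0.00117). Every PC9-BrM4 library of these 3 genes lay below both PC9 libraries. KRT8 was also below PC9 in both libraries but was not called (-0.18, SE 0.06, adjusted p = 0.0935). The remaining stratified keratins KRT10, KRT16, KRT17, KRT78 and KRT80, like the others not named above, did not pass the test (adjusted p between 0.0935 and 0.950 over the 13 keratins not called). KRT16 was at 68.2 and 72.1 TPM in PC9 and 53.0 and 66.2 TPM in PC9-BrM4, KRT17 at 167 and 173 TPM and 172 and 206 TPM, and KRT80 at 74.7 and 76.2 TPM and 83.8 and 69.3 TPM. KRT10, a keratin of differentiated epidermis whose span overlaps TMEM99 on the other strand by 3520 bases, was at 44.6 and 42.1 TPM in PC9, 39.0 and 43.3 TPM in PC9-BrM4 and 44.2 and 40.3 TPM in PC9-AMG, with libraries that overlapped in all 3 lines.

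**Figure D3:**
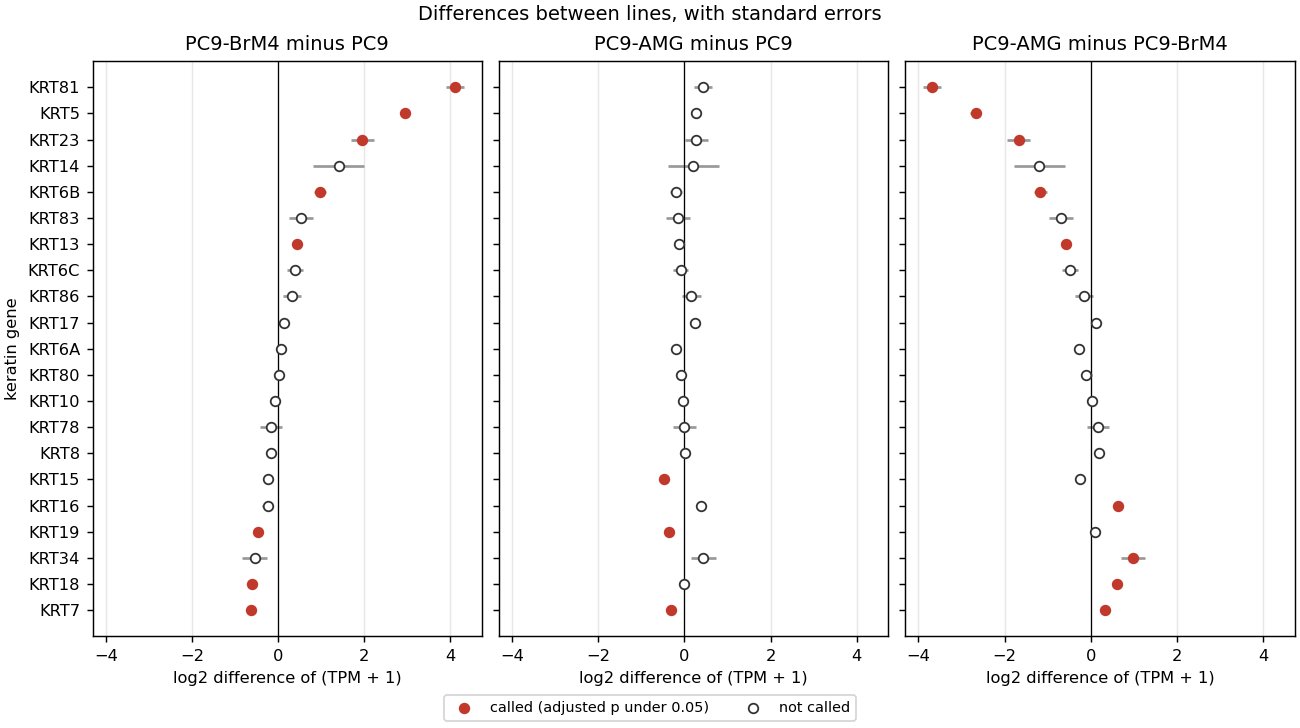
Fitted log2 differences of (TPM + 1) with standard errors for the 21 tested keratins in the 3 comparisons; filled points were called by limma at an adjusted p under 0.05. In PC9-BrM4 against PC9 the values run from 4.11 for KRT81 to -0.63 for KRT7, while in PC9-AMG against PC9 the 3 called keratins lie between -0.30 and -0.48.

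PC9-AMG was compared with PC9 in the same way. KRT7, KRT15 and KRT19 fell in PC9-AMG and no keratin rose, and none of these differences reached 1 on the log2 scale. The 3 calls among 21 keratins stand beside 7.49% of all tested genes, of which 3.67% were higher and 3.82% lower. TPM did not overlap for 13 of the 21 keratins, beside 59.8% of all tested genes, and the median log2 difference was -0.01, beside -0.05 over all. KRT19 fell to 4207 ± 108 TPM (log2 difference -0.36, SE 0.06, adjusted p = 0.0136), KRT7 to 2589 ± 154 TPM (-0.30, SE 0.07, adjusted p = 0.0338) and KRT15 from 63.4 ± 5.84 TPM to 45.0 ± 2.80 TPM (-0.48, SE 0.11, adjusted p = 0.0362). None of the 3 calls held without PC9 library 1, PC9 library 2, PC9-AMG library 1 or PC9-AMG library 2 (adjusted p from 0.0554 to 0.332).

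The keratins that rose in PC9-BrM4 were not called in PC9-AMG. KRT5 had a log2 difference of 0.27 (adjusted p = 0.205), KRT81 of 0.43 (0.240), KRT23 of 0.28 (0.548), KRT6B of -0.20 (0.434) and KRT13 of -0.13 (0.293). The adjusted p of the 18 keratins not called lay between 0.0858 and 0.999. KRT18 and KRT8 were within 0.02 of PC9 (log2 differences -0.01 and 0.02, adjusted p = 0.926 and 0.895), with libraries that overlapped those of PC9. KRT16, a partner of KRT6 in activated epidermis, was at 96.5 and 87.9 TPM, above both PC9 libraries, without a call (0.39, adjusted p = 0.0858) except with the filter at 5 TPM (0.0494).

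Set directly against each other, the derivatives differed in 9 keratins. KRT5, KRT6B, KRT13, KRT23 and KRT81 were lower in PC9-AMG than in PC9-BrM4, and KRT7, KRT16, KRT18 and KRT34 were higher. That is 9 of 21, beside 18.6% of all tested genes, of which 6.31% were higher and 12.3% lower. The groups did not overlap for 18 of the 21, beside 59.5% of all tested genes, and the median log2 difference was -0.16, beside -0.13 over all. Since PC9 cancels from the difference of the changes, this contrast is also the test of whether the derivatives differ in their change from PC9. Without KRT23, KRT34 and KRT83 there were 7 calls among 18, 3 higher and 4 lower.

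The contrast was largest for KRT81 (log2 difference -3.68, SE 0.21, adjusted p = 1e-05) and KRT5 (-2.68, SE 0.12, adjusted p = 3.92e-06), which were 21.2-fold and 6.66-fold lower in PC9-AMG. KRT23 differed by -1.68 (adjusted p = 0.00252), KRT6B by -1.17 (0.000682) and KRT13 by -0.58 (0.000917). In this contrast the 3 KRT6 copies summed were also called (-0.42, adjusted p = 0.0218). KRT18 was 1.52-fold higher in PC9-AMG (0.60, SE 0.06, adjusted p = 0.00028).

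Other calls of this contrast were less secure. KRT7 (0.32, adjusted p = 0.0122) was not called with quantile normalization (0.206), without a filter (0.0617), without the variance trend (0.109), or without PC9-BrM4 library 1 (0.0691) or PC9-AMG library 1 (0.065). KRT16 (0.63, adjusted p = 0.00764) lost its call without PC9-BrM4 library 1 (0.0608) or PC9-AMG library 1 (0.0547). KRT34, a type I hair keratin, was listed at 0.301 and 0.877 TPM in PC9, 0 and 0.146 TPM in PC9-BrM4 and 1.12 and 1.11 TPM in PC9-AMG. Its call (0.98, adjusted p = 0.0407) did not hold with any of the 4 libraries removed (0.0721 to 0.174). KRT8 (0.19, adjusted p = 0.0626), KRT19 (0.11, 0.263) and KRT15 (-0.26, 0.140) were not called. Over the 3 comparisons 11 keratins were called at least once and 10 were not. The share of all tested genes called at least once was not computed. Taken singly, the comparisons called 16.3%, 7.49% and 18.6% of all tested genes.

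Keratin genes lie in dense clusters, and neighbours moved in different directions within them. The type II genes and KRT18 occupy chromosome 12 from 52168996 to 52952901. Of the 12 tested keratins there, 3 rose and 2 fell in PC9-BrM4, with a median log2 difference of 0.20. Of the 40 tested genes around the cluster, 20 on each side, 0 were higher and 14 were lower, with a median of -0.38, beside 9.89% higher, 6.45% lower and a median of 0.09 over all tested genes. KRT7 and KRT18, which fell by 0.63 and 0.61 on the log2 scale, lie in the same region, and how far its general shift enters their values was not tested. In PC9-AMG against PC9 the same 40 genes had 0 higher and 2 lower calls and a median of -0.10. Over all tested genes 3.67% were higher and 3.82% lower there, with a median of -0.05.

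The other type I genes lie on chromosome 17 from 40697991 to 41624630. Of the 9 tested keratins in that cluster 2 were higher in PC9-BrM4 (KRT13 and KRT23) and 1 was lower (KRT19). The 40 tested genes around it had 1 higher and 8 lower calls and a median of -0.17 in PC9-BrM4. All tested genes had 9.89% higher, 6.45% lower and a median of 0.09 there. In PC9-AMG against PC9 the 40 genes had 0 higher and 4 lower calls and a median of -0.20. The values over all tested genes were 3.67%, 3.82% and -0.05. KRT15, KRT19 and KRT13 are close neighbours there, and of these KRT13 rose and KRT19 fell in PC9-BrM4.

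**Figure D4:**
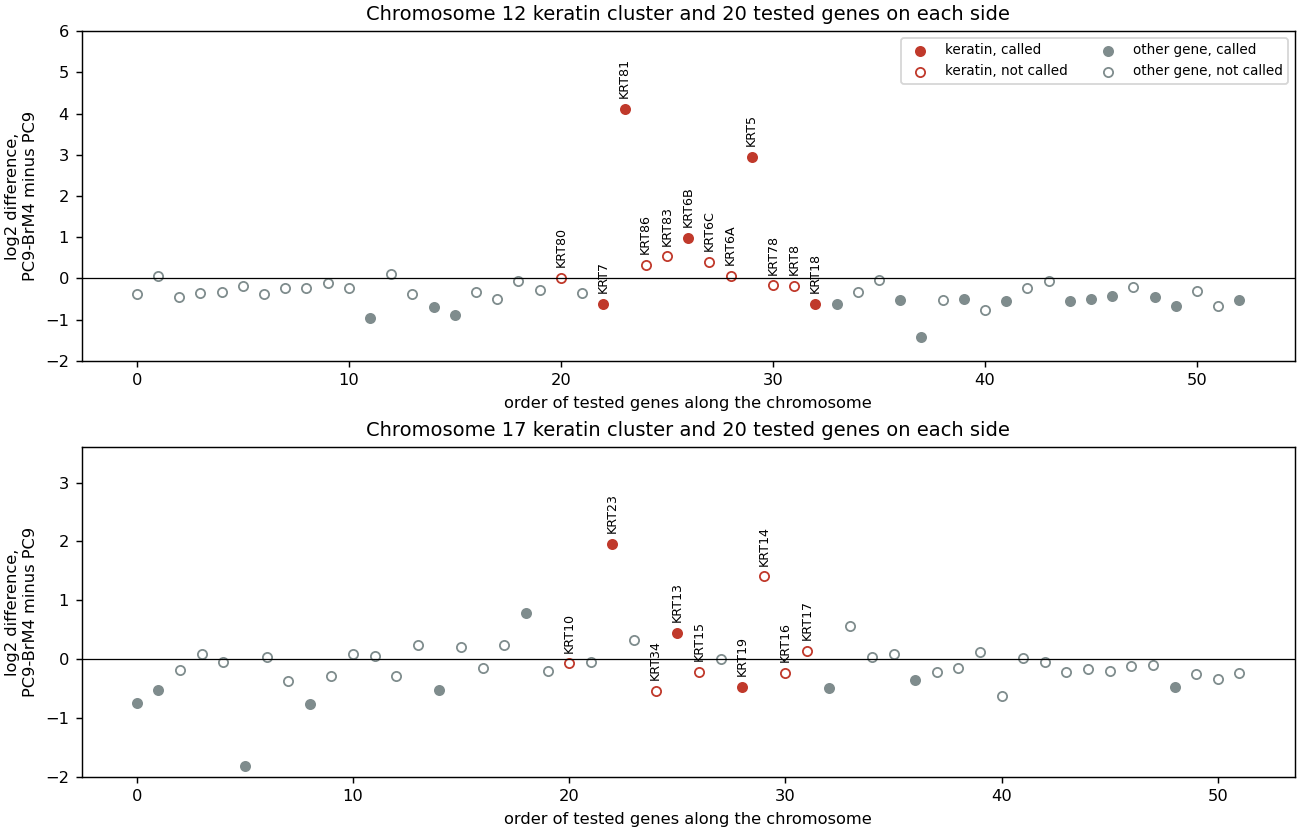
Log2 difference between PC9-BrM4 and PC9 for the tested keratins of the chromosome 12 and 17 clusters and 20 tested genes on each side, in gene order along the chromosome; red marks keratins, grey marks other genes, and filled points were called. KRT81 (4.11) and KRT5 (2.95) stand above neighbours of the chromosome 12 cluster that lie mostly below 0.

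Genes that work with keratins were read from lists chosen with earlier results in view, which are not independent evidence of a direction. Of 20 tested desmosome, hemidesmosome and cytolinker genes, which tie keratins to the membrane, 3 rose and 2 fell in PC9-BrM4 against PC9, beside 9.89% and 6.45% of all tested genes (median log2 difference 0.18, beside 0.09). The desmosomal cadherin DSG3 rose from 0.0206 ± 0.0291 TPM to 1.26 ± 0.043 TPM (1.15, adjusted p = 0.0187), which did not pass with any of the 4 libraries removed (0.0638 to 0.0834). DSG3 passed the filter through PC9-BrM4 only, and without it 2 of 19 rose and 2 fell. In the contrast of PC9-AMG with PC9-BrM4 given below, 1 of 19 was higher and 7 were lower without DSG3. The hemidesmosomal collagen COL17A1 fell from 91.9 ± 1.98 TPM to 38.9 ± 3.77 TPM (-1.22, adjusted p = 0.000234). The cytolinker EPPK1 (0.97) and the plakophilin PKP1 (0.73) were called, but not without PC9 library 1 (0.0658 and 0.259), PC9-BrM4 library 1 (0.130 and 0.157) or PC9-BrM4 library 2 (0.0594 and 0.0734), and PKP1 also not without PC9 library 2 (0.144), with either other pseudocount, without a filter, with FPKM, any of the 3 other scalings, only the 4 libraries or the replicate block (0.0534 to 0.0666). In PC9-AMG against PC9 0 rose and 1 fell, beside 3.67% and 3.82% of all tested genes, namely COL17A1 (-0.65), a call lost without either PC9 library (0.121 and 0.149) or PC9-AMG library 2 (0.0964). Between the derivatives 1 was higher and 8 were lower in PC9-AMG, with a median of -0.39, beside 6.31% higher, 12.3% lower and a median of -0.13 over all tested genes, although the named members DSG3, EPPK1, DSC2 and DSP each lost the call without PC9-BrM4 library 1 (0.0966, 0.194, 0.0649 and 0.212) and without PC9-AMG library 2 (0.0536, 0.118, 0.0536 and 0.213).

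Among 9 tested genes of other intermediate filaments, 2 rose and 1 fell in PC9-BrM4, beside 16.3% of all tested genes called, and 0 rose and 1 fell in PC9-AMG, beside 7.49%. In PC9-BrM4 BFSP1, a lens filament gene, rose (0.61) and NES, nestin of progenitor cells, fell (-0.73). The call of BFSP1 was lost without PC9 library 1 or 2 (0.120 and 0.0760), and that of NES with any of the 4 libraries removed (0.0722 to 0.241). VIM, vimentin of mesenchymal cells, was at 163 ± 0.506 TPM in PC9, 263 ± 8.42 TPM in PC9-BrM4 and 89.4 ± 1.003 TPM in PC9-AMG. It thus rose in PC9-BrM4 (0.69, adjusted p = 0.000674) and fell in PC9-AMG (-0.86, adjusted p = 0.00128). KRT7 and KRT19 fell in both derivatives, in PC9-AMG with calls that did not hold when any library of the comparison was left out.

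The list of cornified envelope and keratinocyte differentiation genes split in PC9-BrM4, with 4 of 16 tested members higher and 6 lower, beside 9.89% and 6.45% of all tested genes. CALML5, a calmodulin-like protein of keratinocytes, went from 3.20 ± 0.213 TPM to 337 ± 60.01 TPM, the corneodesmosome gene CDSN from 1.40 ± 0.410 TPM to 9.33 ± 0.214 TPM, and CASP14, the caspase of epidermal differentiation, from 51.1 ± 5.75 TPM to 185 ± 27.1 TPM. The lipoxygenase gene ALOX12B was at 3.23 ± 0.194 TPM in PC9-BrM4, against 0 in both PC9 libraries. ALOX12B passed the filter through PC9-BrM4 only, and without it 3 of 15 were higher and 6 lower. Those that fell, named after their values were seen, were the envelope and differentiation genes SPRR1A (-1.62), SCEL (-1.37), SPRR1B (-0.96), DMKN (-0.60), LY6D (-0.51) and CSTA (-0.47). In PC9-AMG against PC9 0 rose and 2 fell, SCEL (-0.56) and LY6D (-0.52), and neither passed with any of the 4 libraries removed (0.0558 to 0.290). These 0 and 2 stand beside 3.67% higher and 3.82% lower of all tested genes. Between the derivatives 4 were higher and 4 lower in PC9-AMG, beside 6.31% and 12.3% of all tested genes. Without ALOX12B 4 of 15 were higher and 3 lower in this contrast.

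Of 21 tested transcription factors known to act on keratin genes, 7 rose and 3 fell in PC9-BrM4, beside 9.89% and 6.45% of all tested genes. FOXA1, a factor of lung and gut epithelium, fell from 14.4 ± 0.210 TPM to 1.32 ± 0.722 TPM (-2.76, adjusted p = 4.62e-05), and ELF3, an epithelial ETS factor, from 315 ± 2.24 TPM to 146 ± 3.32 TPM (-1.10). The epidermal differentiation factors ZNF750 and GRHL3 rose by 1.37 and 1.23 (adjusted p = 0.00446 and 0.00324). In PC9-AMG against PC9 GRHL3 rose too (0.77, adjusted p = 0.0489), and OVOL2 (-0.97, 0.0235) and ELF3 (-0.92, 0.00108) fell, of which GRHL3 and OVOL2 did not pass with any of the 4 libraries removed (0.0666 to 0.246). Altogether 1 factor rose and 2 fell there, beside 3.67% and 3.82% of all tested genes. Between the derivatives 2 factors were higher and 8 lower in PC9-AMG, beside 6.31% and 12.3% of all tested genes. TP63, the master factor of basal cells, was at 1.13 and 0.659 TPM in PC9. In PC9-BrM4 it was at 0.487 and 0.325 TPM and in PC9-AMG at 2.15 and 2.61 TPM. Its part in the keratin differences was not tested. It was not called against PC9 in PC9-BrM4 (adjusted p = 0.298) or in PC9-AMG (0.0728), and was higher in PC9-AMG than in PC9-BrM4 (1.26, adjusted p = 0.00852), except without PC9-AMG library 2 (0.0605).

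Squamous and basal markers other than keratins stayed low. Of 9 such genes 5 reached 1 TPM in any library, DSC3 and SERPINB13 were listed at 0, and they summed in PC9 to 3.75 and 4.28 TPM, in PC9-BrM4 to 5.46 and 6.10 TPM and in PC9-AMG to 6.03 and 6.57 TPM. Of the 4 tested, DSG3 and PKP1 were higher in PC9-BrM4 against PC9, with the limits given above, and 0 were called in PC9-AMG against PC9. The same comparisons called 16.3% and 7.49% of all tested genes.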

How the data were processed

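RNA of PC9, PC9-BrM4 and PC9-AMG (6 libraries, 2 per line) was extracted with TRIzol and made into stranded mRNA libraries, per the labels' protocols. HISAT2 2.1.0, StringTie 1.3.4d and the build hg38 were used, per the submitters' processing notes; the annotation, the strand setting and any filter are not given in the sources used here. The authors deposited, per the file headers, TPM, FPKM and Coverage (mean per-base read coverage, the signal behind each value) for every gene and library. TPM is a share of a fixed total, so a change in abundant genes moves all others, and shared reads of near copies are divided by StringTie.

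TPM of genes with several rows was summed; 10 keratins have 2 rows, and their rows on alternate contigs were 0. The 55 keratins equalled the deposited table over all libraries within 0.001 TPM. The filter kept the 14627 genes that reached 1 TPM in 2 or more libraries. Limma 3.58.1 (R 4.3.3) was run on log2(TPM + 1), so changes of low genes are understated. A mean per line was fitted to all 6 libraries, with empirical Bayes moderation and a variance trend (3 residual and 6.81 prior degrees of freedom). Tests were two-sided, with Benjamini-Hochberg adjustment over all tested genes and calls under 0.05, and the fit was tested on simulated data. "Rose", "fell", "higher" and "lower" for a test mean called. Depth is unknown, so no counting interval was computed.

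A keratin was named where its mean reached 1 TPM in any line or where it was called, and from each list up to 4 called members per comparison with the largest difference. The keratins, the lists and the tests were chosen with earlier results of these data known. Transcript sharing and identity came from the longest GENCODE transcript of each gene, with Python 3.11.15 and Biopython 1.88, and the promoter from RefSeq (GRCh38.p14). Marker lists covered epithelium, lung, squamous or basal epithelium, fibroblast, astrocyte, microglia and leukocyte, oligodendrocyte and endothelium. Of these, 1 of 9 fibroblast, 3 of 8 astrocyte, 2 of 8 microglia and leukocyte, 1 of 6 oligodendrocyte and 1 of 6 endothelium markers reached 1 TPM in any library.

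Alternatives were other pseudocounts (0.1 and 0.5), no filter and a filter at 5 TPM, FPKM, centring on the median, rescaling after removal of the 100 highest genes, quantile normalization, the table over all libraries, no variance trend, robust moderation, only the 4 libraries compared, the replicate number as a block, near copies summed, and leaving out each library in turn.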

Additional observations from a re-analysis of the deposited data

Results flagged for a closer look

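The change from PC9 differed between the derivatives for 9 of the 21 tested keratins, beside 18.6% of all tested genes. This is by the limma contrast of PC9-AMG with PC9-BrM4, from which PC9 cancels. Change in PC9-AMG minus change in PC9-BrM4, on the log2 scale, was -3.68 for KRT81, -2.68 for KRT5, -1.68 for KRT23, -1.17 for KRT6B and -0.58 for KRT13, each of which rose in PC9-BrM4 and was not called in PC9-AMG. For KRT18 it was 0.60 and for KRT7 0.32. KRT18 fell in PC9-BrM4. KRT7 fell in both derivatives, in PC9-AMG with a call that did not hold when any library of the comparison was left out. For KRT16 (0.63) and KRT34 (0.98) neither change from PC9 was called on its own, the fitted changes in PC9-BrM4 and PC9-AMG being -0.24 and 0.39 for KRT16 and -0.55 and 0.44 for KRT34. KRT34 stayed at or under 1.12 TPM in every library. In this contrast the calls of KRT7 and KRT16 were lost with some single libraries left out, and that of KRT34 with any of those compared.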

How the results depend on the processing

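KRT5, KRT18, KRT81, KRT23 and KRT6B kept their calls in both comparisons with PC9-BrM4, and KRT7 and KRT19 in PC9-BrM4 against PC9, under every alternative that tested them; the filter at 5 TPM left KRT23 and KRT34 untested, and summing copies replaced KRT6B and KRT81. For the 13 keratins whose differences are printed, 684 alternative values were computed, of which 629 kept direction and call, 39 lost and 6 gained a call and 10 changed sign. The 8 other tested keratins were called under no alternative, and 29 of their 402 values changed sign. Of 671 alternative values of the named list genes, 564 kept their call and 107 lost it.

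The 3 keratin calls of PC9-AMG against PC9 became 0 without a filter, with median centring and without the variance trend, 1 with FPKM and 0 to 0 when a library was left out; the cause was not tested. Of all genes called, PC9-BrM4 against PC9 gave 892 to 1726 with a library left out (fewer samples), against 2389. PC9-AMG against PC9 gave 250 without a filter, 325 without the variance trend and 131 to 369 with a library left out, against 1096. PC9-AMG against PC9-BrM4 gave 1799 without a filter and 1024 to 2886 with a library left out, against 2720. Median centring moved the split of all calls to 917 higher and 1293 lower, 685 and 436, and 1606 and 900 in the 3 comparisons, from 1446 and 943, 537 and 559, and 923 and 1797; quantile normalization gave 1088 and 1253, 671 and 561, and 1326 and 1137.

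Sign changes among the 13, all of differences that were not called, were KRT8, PC9-AMG vs PC9 with quantile normalization (-0.12), without PC9 library 1 (-0.0043) and without PC9-AMG library 1 (-0.014; 0.0502 as the highest value with a library left out), KRT8 and KRT19 in PC9-AMG against PC9-BrM4 with quantile normalization (-0.051 and -0.10), KRT14, PC9-AMG vs PC9 without PC9 library 2 (-0.53) or PC9-AMG library 1 (-0.74; highest 1.16), and KRT18, PC9-AMG vs PC9 with median centring (0.057), FPKM (0.054) and without PC9-AMG library 2 (0.0079; lowest -0.033). KRT8 in PC9-AMG against PC9-BrM4 was called after rescaling (0.0474) and without PC9-BrM4 library 2 (0.0458).

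Libraries of the same number did not deviate together over the tested genes (correlations 0.0292, -0.0388 and 0.00267). This cannot tell if libraries of the same number were prepared together, which the labels do not say. With the replicate block 9, 3 and 10 keratins and 2483, 1298 and 2905 genes were called in the 3 comparisons; KRT14 was gained in the first (adjusted p = 0.022) and the third (0.0406). Precision is limited by 2 libraries per line and unknown depth.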

Other observations

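Of 8 keratin pseudogenes in the tables, named KRT, a number and P, with a number after it in all but KRT42P, the highest was KRT16P2, at 1.36 TPM in PC9-AMG library 1.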
